A study of Mus musculus with 6 samples.

Results

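The genes described here encode proteins that build and remodel the extracellular matrix: 51 genes chosen by name, of the 37224 in the deposited table. They comprise 8 matrix metalloproteinases, 3 tissue inhibitors of metalloproteinases, 13 ADAMTS proteases, 5 lysyl oxidases, 7 proteoglycans, 9 elastic fibre proteins and 6 matricellular and other matrix genes. Each was matched to 1 Ensembl identifier and all 51 passed the filter on low counts. RNA was sequenced from whole pancreata of wild-type (wt) C57/Bl6J mice taken 13.5 or 15.5 days post coitum (dpc). There were 3 biological replicates per stage, and up to 3 embryos were pooled in each. Neither stage carried a mutation or a treatment, and the comparison asked which of these genes differed between the stages.

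Metalloproteinases cut collagens and other matrix proteins, and tissue inhibitors bind and block them. ADAMTS enzymes process procollagens and split large proteoglycans such as versican. Lysyl oxidases crosslink collagen and elastin, elastin is laid down on fibrillin microfibrils, and small leucine-rich proteoglycans such as decorin bind collagen fibrils. In the embryonic pancreas, matrix surrounds and is largely made by the mesenchyme, in which the branching epithelium grows.

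The total counts were 12895732 to 16389237 per sample at 13.5 dpc and 10546028 to 12491550 at 15.5 dpc. Values below are normalised counts, that is counts scaled for library size with TMM factors, and differences are log2 fold changes of 15.5 over 13.5 dpc ± standard error (SE, n = 3 per stage) from edgeR's quasi-likelihood test, called at an adjusted p of 0.05 or lower over the 15578 genes tested. Acinar markers were present and rose, with 7 of 7 called higher, and 4 of 7 epithelial markers were called higher and none lower. Of 10 mesenchyme markers, 7 were called lower and none higher, and their summed normalised count was 20052 to 20572 at 13.5 dpc and 15035 to 15353 at 15.5 dpc. Most of this sum was *Vim*, which was not called, with means of 11782 and 9860. In whole pancreata, fewer cells of a type and less RNA per cell cannot be told apart. The 15.5 dpc replicates 1 and 2 differed most among replicates of a stage, and the differences between them went with exon length, as described below.

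Of the 51 genes, 6 rose and 10 fell between 13.5 and 15.5 dpc. The genes that rose were the elastic fibre genes *Eln* and *Mfap5*, the proteoglycans *Dcn* and *Lum*, the crosslinking enzyme *Lox* and the thrombospondin *Thbs2*. The genes that fell were mainly proteases, *Mmp2*, *Mmp11*, *Mmp14*, *Mmp16*, *Adamts1* and *Adamts2*, with the inhibitor *Timp3*, the lysyl oxidase *Loxl3* and the microfibril-associated *Mfap4* and *Emilin1*. These were 11.8% of the genes higher, against 11.6% of all genes tested, and 19.6% lower, against 10.7% of all genes tested. The share that rose was thus near the background and the share that fell was above it, a description without a test of the list. The median log2 fold change was -0.24, against -0.01 over all genes tested, but it was -0.065 without 15.5 dpc replicate 1, -0.15 without 15.5 dpc replicate 3 and -0.44 when scaled to library size only. At the main setting, 35 of 51 estimates (68.6%) were below 0, against 51.1% of all genes.

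With the thresholds of the study's methods (adjusted p of 0.1 or lower, a mean normalised count over 100 at one stage or the other, and a fold below 0.6 or above 1.6), 2 genes were higher, *Eln* and *Thbs2*, and 5 were lower, *Mmp11*, *Mmp16*, *Adamts1*, *Adamts2* and *Emilin1*. These were 3.92% and 9.80% of the 51, against 6.47% and 3.9% of the 14011 protein-coding genes tested. For 9 genes (17.6%, against 22.8% of all genes tested) every 15.5 dpc sample lay above every 13.5 dpc sample, and for 14 (27.5%, against 23.6%) every one lay below. The calls of *Mmp11*, *Adamts2*, *Emilin1*, *Eln* and *Mfap5* held under every alternative that was run, including each sample left out in turn. On mm10, *Mmp11* (ENSMUSG00000000901) is at chr10:75923222-75932502 on the minus strand, *Adamts2* (ENSMUSG00000036545) at chr11:50602084-50807573 on the plus strand and *Emilin1* (ENSMUSG00000029163) at chr5:30913402-30921278 on the plus strand. *Eln* (ENSMUSG00000029675) is at chr5:134703781-134747241 on the minus strand and *Mfap5* (ENSMUSG00000030116) at chr6:122505845-122529290 on the plus strand. The other 11 calls were each lost when 13.5 dpc replicate 1, 2 or 3 or 15.5 dpc replicate 3 was left out, except that *Dcn* was kept without 13.5 dpc replicate 2 and *Thbs2* without 13.5 dpc replicate 3. Over all genes tested, 22.3% were called with all samples and 7.83% to 9.05% with one of these 4 left out. With 15.5 dpc replicate 1 or 2 left out all 16 calls held and 23 and 32 of the 51 were called, while the calls over all genes rose as well, to 26.9% and 48.0%.

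**Figure D1:**
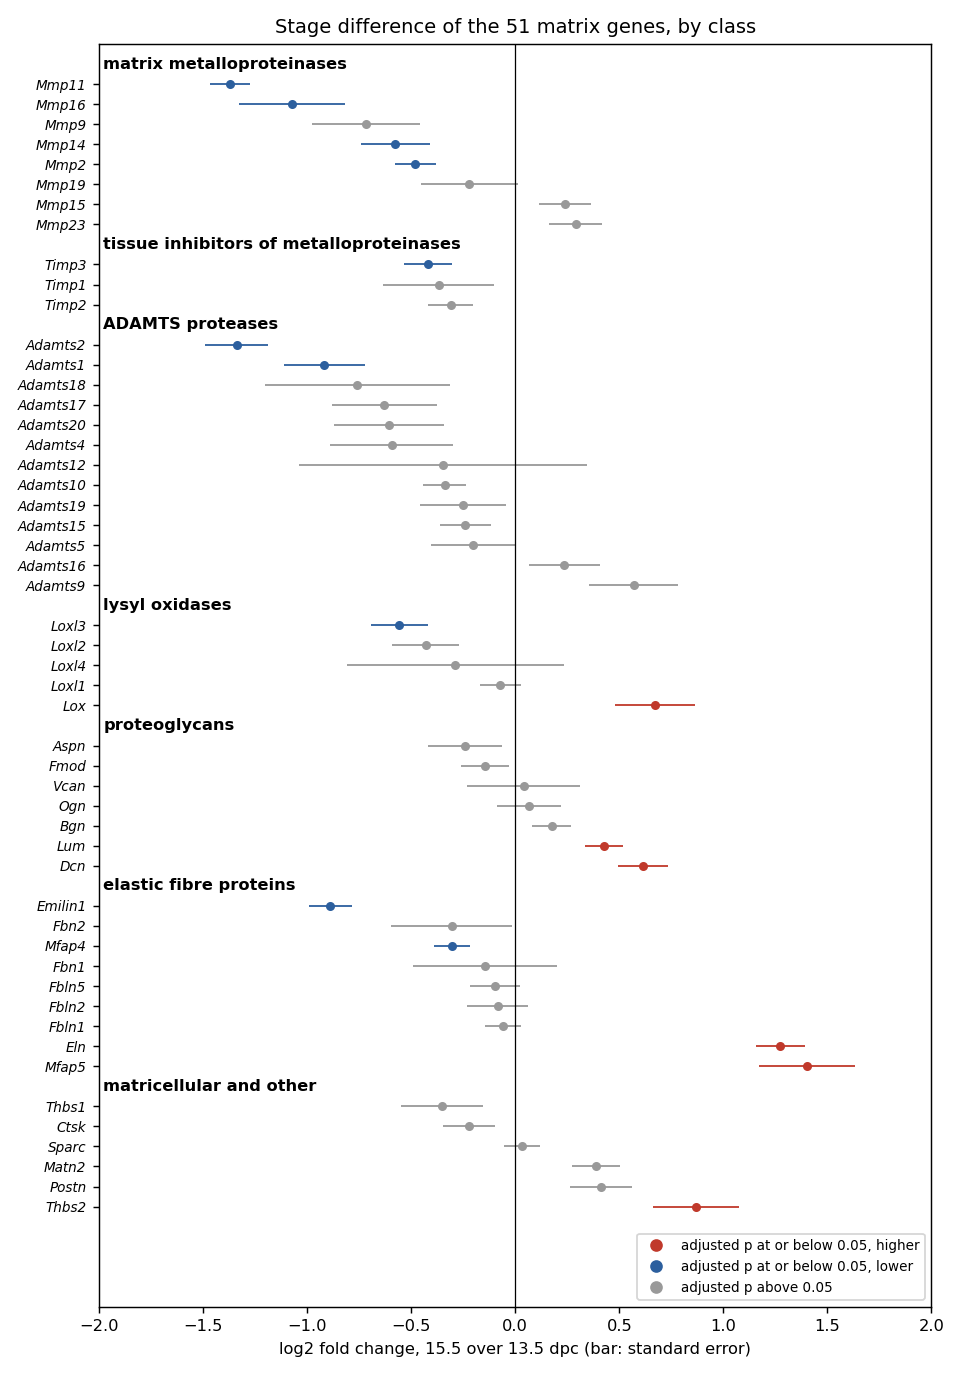
Log2 fold change (15.5 over 13.5 dpc) with its SE for each of the 51 genes, grouped by class, with red and blue points for genes called higher and lower at an adjusted p of 0.05 and grey points for the others. The metalloproteinases range from -1.37 to 0.29, and the largest increases are those of *Eln* (1.27) and *Mfap5* (1.40).

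Among the metalloproteinases, 4 of 8 fell and none rose, with a median log2 fold change of -0.53. The counts of this and the later classes stand beside 10.7% lower and 11.6% higher of all genes tested. No class was tested as a set. *Mmp11* (stromelysin-3), which is made mainly by stromal cells, had 694, 662 and 634 normalised counts in the 13.5 dpc replicates and 246, 251 and 272 in those of 15.5 dpc. All 3 samples of the later stage lay far below all 3 of the earlier one, with little spread within either. The fall was 2.59-fold (log2 fold change -1.37 ± 0.10, adjusted p = 0.000472). *Mmp16*, a membrane-type metalloproteinase, had 211, 195 and 233 at 13.5 dpc and 66.4, 143 and 90.7 at 15.5 dpc. The stages did not overlap, but replicate 2 of the later stage was 2.16 times replicate 1 (log2 fold change -1.07 ± 0.26, adjusted p = 0.024).

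*Mmp14*, the membrane-type enzyme that activates pro-MMP2 at the cell surface, had 2580, 2539 and 2724 normalised counts at 13.5 dpc and 1320, 2122 and 1815 at 15.5 dpc. *Mmp2* (gelatinase A) had 2078, 1890 and 2082 at 13.5 dpc and 1319, 1546 and 1471 at 15.5 dpc. Both were lower in every sample of the later stage, and *Mmp14* varied more there than *Mmp2* did. Their log2 fold changes were -0.58 ± 0.17 (adjusted p = 0.0456) and -0.48 ± 0.10 (adjusted p = 0.0145). Per kilobase of exon, *Mmp14* over *Mmp2* was 1.45, 1.57 and 1.53 at 13.5 dpc and 1.17, 1.61 and 1.44 at 15.5 dpc, so that the ratios of the stages overlapped.

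The other 4 metalloproteinases were not called. *Mmp9* (gelatinase B) was low, with 42.9 to 62.0 normalised counts at 13.5 dpc and 23.9 to 42.9 at 15.5 dpc (log2 fold change -0.72, adjusted p = 0.0843). The log2 fold change of *Mmp19* was -0.22, and 23.1% of its exon bases lie opposite exons of *Tmem198b* on the other strand. The membrane-type *Mmp15* was at 775 ± 81.7 and 914 ± 105 normalised counts (SD, n = 3 each; log2 fold change 0.24). *Mmp23* was the only member of this class whose later samples all lay above the earlier ones, with 202, 209 and 220 and then 292, 224 and 258, without passing the test (log2 fold change 0.29, adjusted p = 0.138).

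All 3 tissue inhibitors had a negative estimate and *Timp3* passed the test. *Timp3*, which is held in the matrix and also blocks several ADAMTS and ADAM enzymes, had 1575, 1510 and 1635 normalised counts at 13.5 dpc and 1049, 1357 and 1119 at 15.5 dpc. The stages did not overlap and the log2 fold change was -0.42 ± 0.12 (adjusted p = 0.0399). The call was lost with the replicate number as a block (adjusted p = 0.0716) and with the trend of exon length removed, and 21.3% of the exon bases lie opposite *Syn3*, an oppositely oriented gene. *Timp2*, which takes part in MMP14-dependent activation of pro-MMP2, had 2154, 2108 and 2108 and then 1478, 1872 and 1784, again without overlap but not called (log2 fold change -0.31, adjusted p = 0.0784). *Timp1* had 163, 161 and 159 at 13.5 dpc but 176, 76.7 and 126 at 15.5 dpc, and was thus much more variable at the later stage (log2 fold change -0.37, adjusted p = 0.334).

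The balance of inhibitor to enzyme transcripts is given per kilobase and sample, without a test. *Timp2* over *Mmp14* was 0.556, 0.554 and 0.516 at 13.5 dpc and 0.746, 0.588 and 0.655 at 15.5 dpc. *Timp2* over *Mmp2* was 0.808, 0.870 and 0.789 and then 0.874, 0.944 and 0.946. Both ratios were higher in every sample of the later stage, since the estimates of the enzymes were more negative than that of the inhibitor.

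Among the ADAMTS genes, 2 of 13 fell, none rose and 11 estimates were below 0. Of all genes tested, 10.7% were called lower, 11.6% higher and 51.1% had an estimate below 0. Their median was -0.35, and -0.88 without 15.5 dpc replicate 2. *Adamts2*, which removes the amino-terminal propeptide of fibrillar procollagens, had 1108, 931 and 1002 normalised counts at 13.5 dpc and 361, 487 and 351 at 15.5 dpc. *Adamts1*, a protease of versican and aggrecan, had 6208, 6268 and 6632 and then 2465, 4391 and 3255. Neither gene overlapped between the stages, and replicate 2 was the highest of the later samples for both. *Adamts2* fell 2.53-fold (log2 fold change -1.34 ± 0.15, adjusted p = 0.00156) and *Adamts1* fell 1.89-fold (-0.92 ± 0.20, adjusted p = 0.0167).

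*Adamts9*, which also cleaves versican, had the only large positive estimate of this class. It had 3312, 3514 and 4101 normalised counts at 13.5 dpc and 4051, 7311 and 4838 at 15.5 dpc, so that the lowest later sample lay just below the highest earlier one. Its log2 fold change was 0.57 ± 0.22 (adjusted p = 0.0965), and 14.4% of its exon bases lie opposite other genes. *Adamts10*, which binds fibrillin, and *Adamts17* were lower in every later sample without being called, at log2 fold changes of -0.34 (adjusted p = 0.0518) and -0.63 (adjusted p = 0.109). *Adamts12* could hardly be measured as a stage difference: it had 109, 111 and 193 at 13.5 dpc and 19.4, 235 and 61.7 at 15.5 dpc, a 12.1-fold gap between replicates of the later stage. The proteoglycan-degrading *Adamts4*, *Adamts5* and *Adamts15* had estimates of -0.59, -0.20 and -0.24, and overlapped between the stages. *Adamts16* (0.24), *Adamts19* (-0.25) and *Adamts20* (-0.61) overlapped as well. *Adamts18* was among the lowest genes of all, at 5.54 to 25.1 normalised counts (-0.76, adjusted p = 0.242).

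Summed over the class, metalloproteinases had 6363 to 6883 normalised counts per sample at 13.5 dpc and 4188 to 5423 at 15.5 dpc, and inhibitors had 3779 to 3902 and 2703 to 3306. Neither range overlapped between the stages, and the sums were not tested. For the ADAMTS genes the ranges overlapped, at 14953 to 16553 and 9963 to 16756. The mesenchyme markers were lower as well, with 10 of 10 estimates below 0 and a median of -0.66. Other marker lists also had medians below 0, among them erythroid (-0.68) and neural and glia (-0.38). For example, *Pdgfra* was called lower at -1.33 and *Tcf21* at -1.01, whereas *Vim* (-0.26), *Pdgfrb* (-0.22) and *Zeb2* (-0.56) were not called. The part of the mesenchymal share in the lower protease and inhibitor values was not tested.

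**Figure D2:**
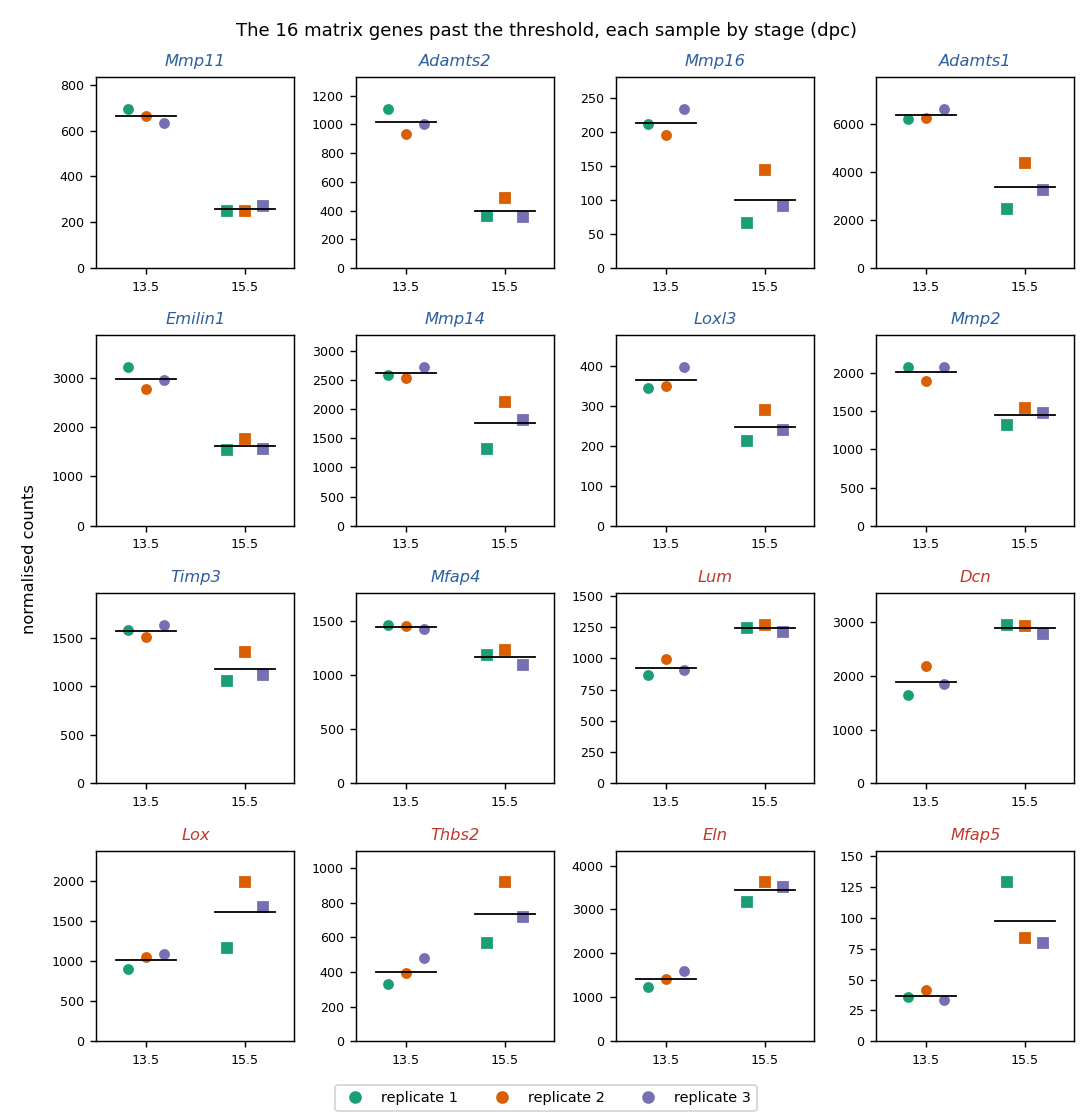
Normalised counts of the 16 called genes in each sample, by stage, with a line at the mean of each stage and gene names in blue for lower and red for higher. The samples of the stages are apart in every panel. Replicate 2 is the highest and replicate 1 the lowest of the 15.5 dpc samples for *Mmp16*, *Adamts1*, *Mmp14*, *Lox*, *Thbs2*, *Mmp2*, *Timp3*, *Loxl3*, *Eln* and *Emilin1*.

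Upstream sequence is shown for the 4 called proteases with a RefSeq window, which fell, and for *Thbs2*, the called gene with a window that rose. RefSeq promoter windows (GRCm38.p6, the mm10 assembly, 250 bases before to 50 after the start) were matched for 29 of the 51 genes, with 33 windows. The 100 bases before the start are given 5′ to 3′ on the strand of the gene, with TATAAA in capitals, for *Mmp11* (chr10:75932503-75932602, minus strand), *Mmp14* (chr14:54431498-54431597, plus strand), *Adamts2* (chr11:50601985-50602084, plus strand), *Adamts1* (chr16:85803114-85803213, minus strand) and *Thbs2* (chr17:14694263-14694362, minus strand).
Mmp11: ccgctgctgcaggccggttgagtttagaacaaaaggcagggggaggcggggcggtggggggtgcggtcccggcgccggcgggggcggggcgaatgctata
Mmp14: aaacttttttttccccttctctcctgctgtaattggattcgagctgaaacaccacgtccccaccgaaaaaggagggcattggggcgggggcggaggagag
Adamts2: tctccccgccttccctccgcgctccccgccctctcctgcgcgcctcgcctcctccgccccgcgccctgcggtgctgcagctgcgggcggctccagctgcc
Adamts1: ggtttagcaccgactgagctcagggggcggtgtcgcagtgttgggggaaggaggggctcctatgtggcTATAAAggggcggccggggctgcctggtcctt
Thbs2: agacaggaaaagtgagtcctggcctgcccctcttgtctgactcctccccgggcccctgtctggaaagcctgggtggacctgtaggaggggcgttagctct

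*Adamts1* and *Postn* were the only matched genes with TATAAA on the gene's strand with its first base 20 to 35 bases before the start, at 32 and 26 bases, which is 2 of 33 windows (6.06%) against 1.84% of all 32851 windows. On either strand and anywhere in the window, TATAAA was in 5 of 33 windows (*Adamts1*, *Aspn*, *Ogn*, *Postn* and *Thbs2*), or 15.2% against 13.6%. The *Adamts2* window was the richest in G and C of those shown, at 77.3% with 41 CpG, against medians of 52.7% and 7 over all windows. The *Mmp11*, *Adamts1*, *Mmp14* and *Thbs2* windows held 67.0%, 64.7%, 56.0% and 48.3% G and C. Of the 2 RefSeq windows of *Postn*, which was not called, 1 had no TATAAA. The letters TGANTCA, the form bound by AP-1 factors, were searched on both strands and were in none of the 33 windows, against 7.81% of all windows. GGAATG, the form bound by TEAD factors, was in 2 windows (*Ogn* and *Timp1*), or 6.06% against 14.7%. These matches are descriptions of letters in the windows and not of binding.

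The lysyl oxidases moved in both directions. *Lox*, the founding enzyme of the family, had 897, 1049 and 1085 normalised counts at 13.5 dpc and 1161, 1982 and 1675 at 15.5 dpc. The stages did not overlap, although later replicate 1 lay only just above the highest earlier sample. The rise was 1.59-fold (log2 fold change 0.67 ± 0.19, adjusted p = 0.0448), and the call was lost when counts were scaled to library size only, with upper quartile factors or with a minimum of 10 counts (adjusted p = 0.16, 0.0513 and 0.0505).

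*Loxl3* had 344, 351 and 398 and then 213, 288 and 239, again without overlap (log2 fold change -0.56 ± 0.14, adjusted p = 0.0286), and 12.8% of its exon bases lie opposite *Htra2*. *Loxl1*, the family member most tied to elastic fibres, had nearly the same level at both stages, with 1056 ± 25.9 and 1005 ± 91.9 (SD, n = 3 each; log2 fold change -0.07 ± 0.10). *Loxl2* was lower in every later sample without being called (log2 fold change -0.43, adjusted p = 0.0914), but its count is uncertain, since 45.0% of its 50-base stretches are shared, for example with *Gm21451*. *Loxl4* was scarcely detected, at 4.15 to 23.5 normalised counts (log2 fold change -0.29).

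Among the proteoglycans 2 of 7 rose and none fell, against 11.6% and 10.7% of all genes tested. *Dcn* (decorin) had 1638, 2187 and 1840 normalised counts at 13.5 dpc and 2953, 2922 and 2785 at 15.5 dpc. *Lum* (lumican), its neighbour on chromosome 10 and also a regulator of collagen fibril width, had 865, 995 and 907 and then 1240, 1269 and 1211. For both, the later samples were closely grouped and all above the earlier ones. The log2 fold changes were 0.61 ± 0.12 (adjusted p = 0.0127) for *Dcn* and 0.43 ± 0.09 (adjusted p = 0.0173) for *Lum*. Both calls were lost when counts were scaled to library size only (adjusted p = 0.0564 and 0.176), a scaling that moved the median of all genes to -0.22. Per kilobase, *Dcn* over *Lum* was 1.89, 2.19 and 2.02 at 13.5 dpc and 2.37, 2.29 and 2.29 at 15.5 dpc.

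The other small leucine-rich proteoglycans were not called. *Bgn* (biglycan), the closest relative of decorin, had 1698, 1763 and 1881 normalised counts and then 1878, 2170 and 1978, with a slight overlap (log2 fold change 0.17 ± 0.10, adjusted p = 0.213, and -0.03 when scaled to library size only). *Fmod* (fibromodulin), *Ogn* (osteoglycin) and *Aspn* (asporin) had estimates of -0.14, 0.07 and -0.24, with overlap. *Vcan* (versican), the large hyaluronan-binding proteoglycan cut by ADAMTS enzymes, had 576, 636 and 718 at 13.5 dpc and 425, 961 and 594 at 15.5 dpc. The later samples thus lay below, among and above the earlier ones, and the log2 fold change of 0.04 ± 0.27 is too imprecise to show whether the substrate of *Adamts1* differed. The summed normalised count of the proteoglycan class was 5615 to 6549 at 13.5 dpc and 7206 to 8253 at 15.5 dpc. The part of the mesenchymal share in these values was not tested.

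The elastic fibre genes held both the largest increases and a strong decrease. *Eln*, the gene of elastin, had 1245, 1418 and 1594 normalised counts at 13.5 dpc and 3175, 3618 and 3506 at 15.5 dpc. Every later sample lay far above the highest earlier one, and the rise was 2.42-fold (log2 fold change 1.27 ± 0.12, adjusted p = 0.000907). *Mfap5*, a microfibril-associated glycoprotein that binds fibrillin, had 35.5, 41.2 and 33.0 and then 129, 83.9 and 79.3. It stayed low at both stages but did not overlap between them, and it rose 2.64-fold (log2 fold change 1.40 ± 0.23, adjusted p = 0.00638).

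*Emilin1*, a glycoprotein at the interface of elastin and microfibrils, had 3224, 2765 and 2960 normalised counts at 13.5 dpc and 1528, 1756 and 1546 at 15.5 dpc. It was thus lower in every later sample by a wide margin, with a log2 fold change of -0.89 ± 0.10 (adjusted p = 0.00181). *Mfap4*, which binds elastin and collagen, had 1466, 1455 and 1421 and then 1183, 1234 and 1094. The groups were tight and apart, and the small fall of -0.31 ± 0.09 passed the test narrowly (adjusted p = 0.0436). This call was lost with relative log expression factors (adjusted p = 0.0507), without the filter (0.0627) and with the replicate block (0.105).

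No stage difference was called for the fibrillins and fibulins. *Fbn1* (fibrillin-1) had 1278, 1174 and 1575 normalised counts at 13.5 dpc and 650, 1909 and 1073 at 15.5 dpc. *Fbn2* (fibrillin-2) had 1679, 1620 and 2043 and then 916, 2156 and 1242. In both, later replicates 1 and 3 were below and later replicate 2 above all earlier samples, and the log2 fold changes were -0.15 ± 0.35 and -0.31 ± 0.29. *Fbln1* (fibulin-1) was the steadiest, with 2672, 2375 and 2503 and then 2349, 2438 and 2457 (-0.06 ± 0.09), while *Fbln2* and *Fbln5*, the latter needed for elastic fibre assembly, had estimates of -0.08 and -0.10. The estimates of all 3 fibulins were above 0 with the trend of exon length removed.

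*Eln* over *Fbn1* per kilobase was 4.57, 5.67 and 4.75 at 13.5 dpc and 22.9, 8.90 and 15.3 at 15.5 dpc. Elastin transcript was thus higher relative to fibrillin-1 in every later sample, while its spread at 15.5 dpc came mostly from that of *Fbn1*. Smooth muscle makes elastin in vessel walls, and of 8 smooth muscle and pericyte markers *Acta2* (0.96), *Tagln* (1.13) and *Actg2* (0.85) rose, whereas the pericyte markers *Rgs5* (-0.85) and *Kcnj8* (-0.53) fell. The summed count of the list was 4104 to 4229 at 13.5 dpc and 3615 to 4337 at 15.5 dpc. The part of smooth muscle in the *Eln* and *Mfap5* values was not tested.

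Among the 6 matricellular and other genes, only *Thbs2* rose and none fell, against 11.6% and 10.7% of all genes tested. *Thbs2* (thrombospondin-2), which limits angiogenesis and affects collagen fibril assembly, had 328, 395 and 481 normalised counts at 13.5 dpc and 566, 918 and 715 at 15.5 dpc. The stages did not overlap and the rise was 1.83-fold (log2 fold change 0.87 ± 0.21, adjusted p = 0.0243), a call that was lost when counts were scaled to library size only (adjusted p = 0.0778). Its paralogue *Thbs1* had 899, 893 and 995 and then 529, 950 and 701, with overlap (-0.35 ± 0.20, adjusted p = 0.226). The difference between the paralogues was not tested.

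*Postn* (periostin), a collagen-binding matricellular protein, had 1423, 1516 and 1609 normalised counts and then 1639, 2442 and 1969, and *Matn2* (matrilin-2), a filament-forming adaptor, had 891, 1042 and 1037 and then 1204, 1221 and 1462. Neither overlapped between the stages and neither was called, with log2 fold changes of 0.41 ± 0.15 (adjusted p = 0.0863) and 0.39 ± 0.12 (adjusted p = 0.052). *Sparc* (osteonectin), a collagen chaperone, was the most abundant of the genes, with 13794, 14364 and 14342 and then 13770, 14919 and 14772. Its log2 fold change was 0.03 ± 0.09, and it turned to -0.18 when counts were scaled to library size only. *Ctsk* (cathepsin K), a collagen-degrading protease of osteoclasts and fibroblasts, had 293 ± 14.7 and 252 ± 33.6 (SD, n = 3 each; log2 fold change -0.22), and overlapped between the stages. Of 5 osteoclast markers, *Acp5* rose from 121 to 202 normalised counts (log2 fold change 0.73), *Calcr* fell from 40.1 to 17.3 (-1.19), *Itgb3* was at 125 and 141 without a call, *Ocstamp* was at 0 in all samples but 1 and *Dcstamp* was at 0 in all. The part of such cells in the *Ctsk* values was not tested.

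Compared per kilobase of exon, *Sparc* had the highest level at both stages, with 4207 ± 95.8 and 4303 ± 186 normalised counts per kilobase (SD, n = 3). At 13.5 dpc it was followed by *Adamts1* (1201 ± 43.3), *Mmp14* (1007 ± 37.4) and *Dcn* (906 ± 133), the last of which did not lie apart from *Mmp14* beyond its spread. At 15.5 dpc the next places were held by *Dcn* (1385 ± 42.8) and *Eln* (1329 ± 89.2), which were within their spread of each other, with *Mmp14* (675 ± 156), *Adamts1* (636 ± 183), *Mfap4* (609 ± 36.9) and *Lum* (598 ± 13.9) below them and not distinguishable among themselves. *Sparc* over *Adamts1* per kilobase thus went from 3.50, 3.61 and 3.41 to 8.80, 5.35 and 7.15. The lowest levels were those of *Adamts18* (3.40 and 1.94 per kilobase) and *Loxl4* (3.75 and 2.89).

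**Figure D3:**
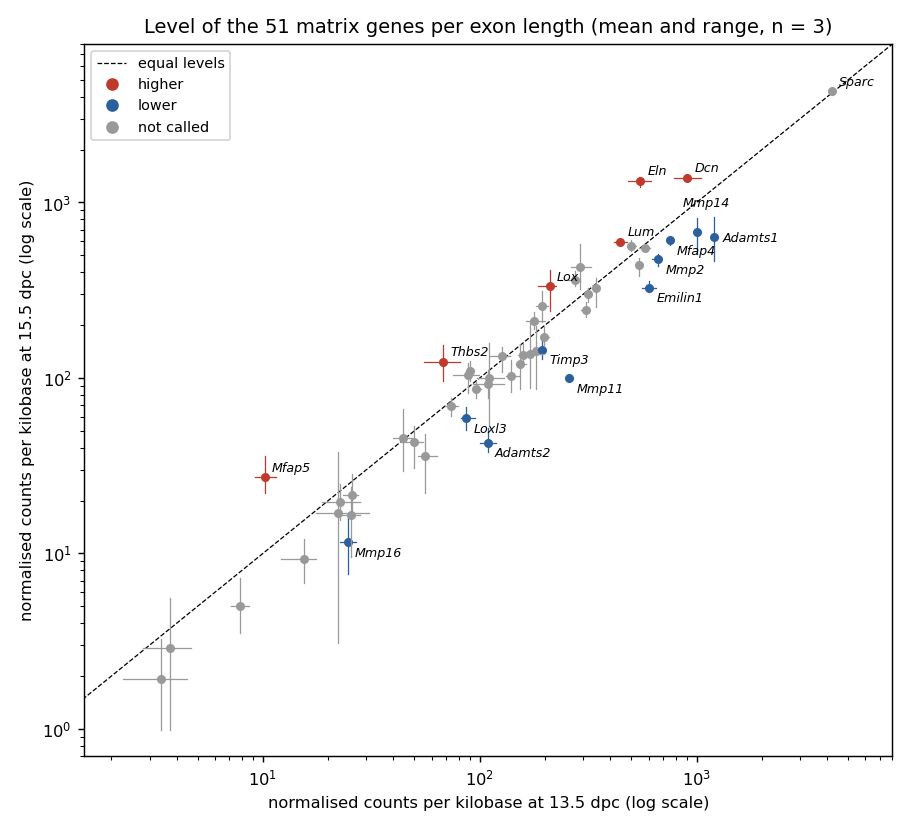
Mean normalised counts per kilobase of exon of each gene at 13.5 dpc (horizontal, log scale) and 15.5 dpc (vertical, log scale), with lines from the lowest to the highest of the 3 samples and a dashed line of equal levels. *Eln*, *Dcn* and *Mfap5* lie above the dashed line, the called proteases lie below it, and *Sparc* lies on it at 4207 and 4303.

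The differences between the 15.5 dpc replicates went with exon length among these genes. At 15.5 dpc, replicate 2 was above replicate 1 in 45 of the 51 genes (88.2%), against 50.4% of all genes tested, and the order replicate 1, 3, 2 from low to high was seen in 36 (70.6%), against 36.0%. The log2 ratio of replicate 2 over replicate 1 had a median of 0.43 and went with exon length across the genes (Spearman's rho 0.71 over 51 genes, and 0.59 over 15566 genes tested), a description over genes that share the same libraries. The median exon length of the 51 was 4666 bases, against 3470.5 of all genes tested. The same libraries also differed in acinar markers, whose summed normalised count was 931319, 387561 and 568819 in 15.5 dpc replicates 1, 2 and 3, and in epithelial markers, with 42785, 32973 and 35871. Both sums ran opposite to the order seen in most of the 51 genes, but the epithelial list was split by exon length. Its longest genes had that same order in replicates 1, 2 and 3: *Cdh1* (4574 bases) with 7767, 9963 and 8735 and *Esrp1* (6305 bases) with 1370, 1525 and 1437. The shorter *Epcam*, *Krt8*, *Krt18*, *Cldn3* and *Cldn4* were highest in replicate 1 and lowest in replicate 2. The part of these cell types in the order was not tested.

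In the 22 genes of over 5000 exon bases the median coefficient of variation was 9.54% at 13.5 dpc and 27.6% at 15.5 dpc, and 5 of them (22.7%) were called, against 21.1% of all genes tested of that length. In the 29 genes of 5000 bases or fewer it was 7.72% and 12.1%, and 11 (37.9%) were called, against 22.7% of all genes tested of that length. Over all genes tested the median coefficient of variation at 15.5 dpc was 19.0% above 5000 exon bases and 17.5% at 5000 or fewer, so that the gap between the length groups was much smaller there. *Fbn1*, *Fbn2* and *Vcan*, with 12128, 10480 and 14462 exon bases, were 2.94, 2.35 and 2.26 times as high in later replicate 2 as in replicate 1. In contrast, the short *Dcn*, *Lum* and *Mmp11*, with 2084, 2075 and 2572 bases, had ratios of 0.989, 1.02 and 1.02. Yet *Mmp14* and *Aspn*, with 2597 and 2346 bases, had ratios of 1.61 and 1.43. The median log2 ratio was 0.81 in the 22 genes of over 5000 bases and 0.21 in the 29 others. *Timp1*, the shortest gene with 888 bases, went the other way at 0.436.

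With a trend of each library with exon length removed, 12 genes were higher and 13 lower, against 18.1% higher and 14.7% lower of all genes in that fit, and 15 of the 16 calls were kept, all but that of *Timp3*. *Adamts9* (0.88), *Postn* (0.63), *Matn2* and *Vcan* were among the genes called higher in that fit, and *Timp1* (-0.70) and *Timp2* among those called lower. Without 15.5 dpc replicate 2, in contrast, 24 genes were lower and 8 higher, against 23.3% lower and 24.7% higher of all genes in that fit, with *Fbn1*, *Fbn2*, *Thbs1* and 8 ADAMTS genes newly called lower. The estimates for long genes thus depended on which of the later samples entered the fit.

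**Figure D4:**
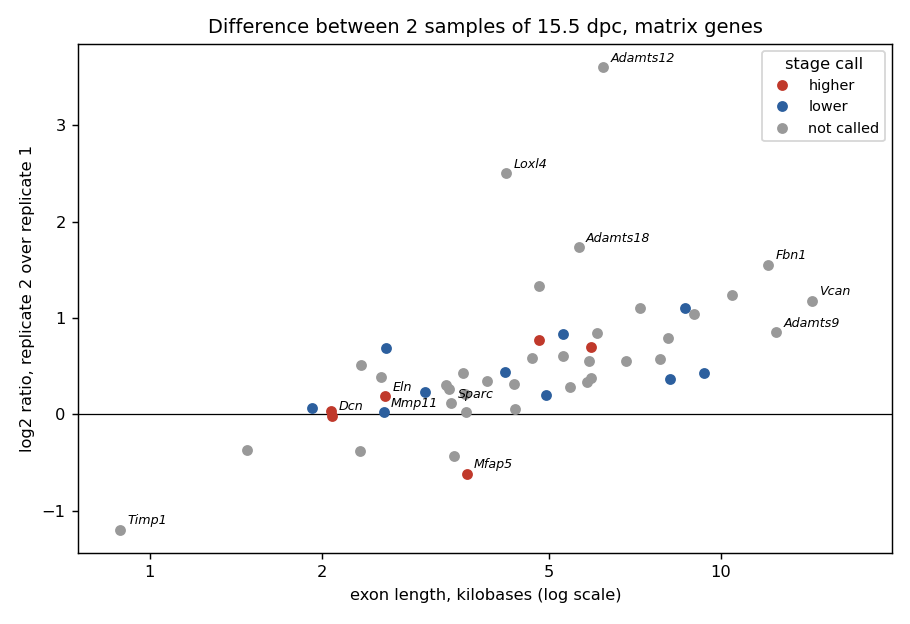
Log2 ratio of 15.5 dpc replicate 2 over replicate 1 (vertical) against exon length in kilobases (horizontal, log scale) for the 51 genes, coloured by the stage call. Most points lie above 0 (45 of 51), with *Adamts12* highest and *Timp1* lowest.

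Other genes of the same families were examined for comparison. Of 99 further genes, 78 were tested, of which 11 were called higher (14.1%, against 11.6% of all genes) and 16 lower (20.5%, against 10.7%), with a median log2 fold change of -0.19. Of 15 other metalloproteinases and regulators of proteolysis tested, 2 fell and 2 rose, against 10.7% and 11.6% of all genes. No single list was tested as a set. The membrane-bound metalloproteinase inhibitor *Reck* (-0.85 ± 0.19, adjusted p = 0.0189) and the plasma protease inhibitor *A2m* (-1.04) fell, while the urokinase receptor *Plaur* (0.96) and the metalloproteinase inducer *Bsg* (0.59) rose. Of 11 further ADAMTS and ADAMTS-like genes tested, 3 fell and 2 rose, beside the same all-gene shares. *Adamts6* (-1.63), *Adamtsl1* (-0.89) and *Adamts7* (-0.84) fell, and *Adamtsl4* (0.63), a fibrillin-binding protein, and *Adamtsl5* (0.36) rose. The remaining tissue inhibitor, *Timp4*, did not pass the filter, with 1.44 to 2.73 normalised counts at 13.5 dpc and 8.30 to 13.9 at 15.5 dpc.

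Of 13 further proteoglycan and hyaluronan genes tested, 5 fell and 3 rose, against 10.7% and 11.6% of all genes. The hyaluronan synthases *Has2* (-1.51 ± 0.19, adjusted p = 0.00232) and *Has3* (-1.01), the link proteins *Hapln1* (-1.22) and *Hapln3* (-1.02) and the large proteoglycan *Acan* (-1.04) were lower, and the hyaluronan receptor *Cd44* (1.05 ± 0.11, adjusted p = 0.0015) and the leucine-rich *Chad* (1.15) and *Prelp* (0.89) were higher. The cartilage markers *Col2a1* (-2.48) and *Col9a1* (-1.72) were lower too, as was *Sox9* (-0.67), which is on the same list but also marks pancreatic epithelial progenitors, and *Acan* is itself one of that list. The part of the cells that express them in the *Acan* and *Hapln1* values was not tested, and *Matn1* was near 0.

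Of 17 elastic fibre and microfibril genes, 2 fell and 2 rose, against 10.7% and 11.6% of all genes. *Emilin2* (1.31 ± 0.14, adjusted p = 0.0013) and *Hmcn2* (1.99) rose, whereas *Emilin3* (-1.27) and the latent TGF-β binding protein *Ltbp1* (-1.21) fell. *Emilin1* and *Emilin3* were thus lower at 15.5 dpc and *Emilin2* higher. Of 22 matricellular genes tested, 4 fell and 2 rose, beside the same all-gene shares. Among these 22, *Tgfbi* had the largest change (-2.42 ± 0.13, adjusted p = 0.000257), from 3688 ± 448 to 688 ± 62.9 normalised counts (SD, n = 3 each). *Wisp1* (-1.18), *Smoc2* (-0.95) and *Spp1* (-0.50) fell with it, and *Nov* (1.26) and *Tnxb* (1.00) rose.

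**Figure D5:**
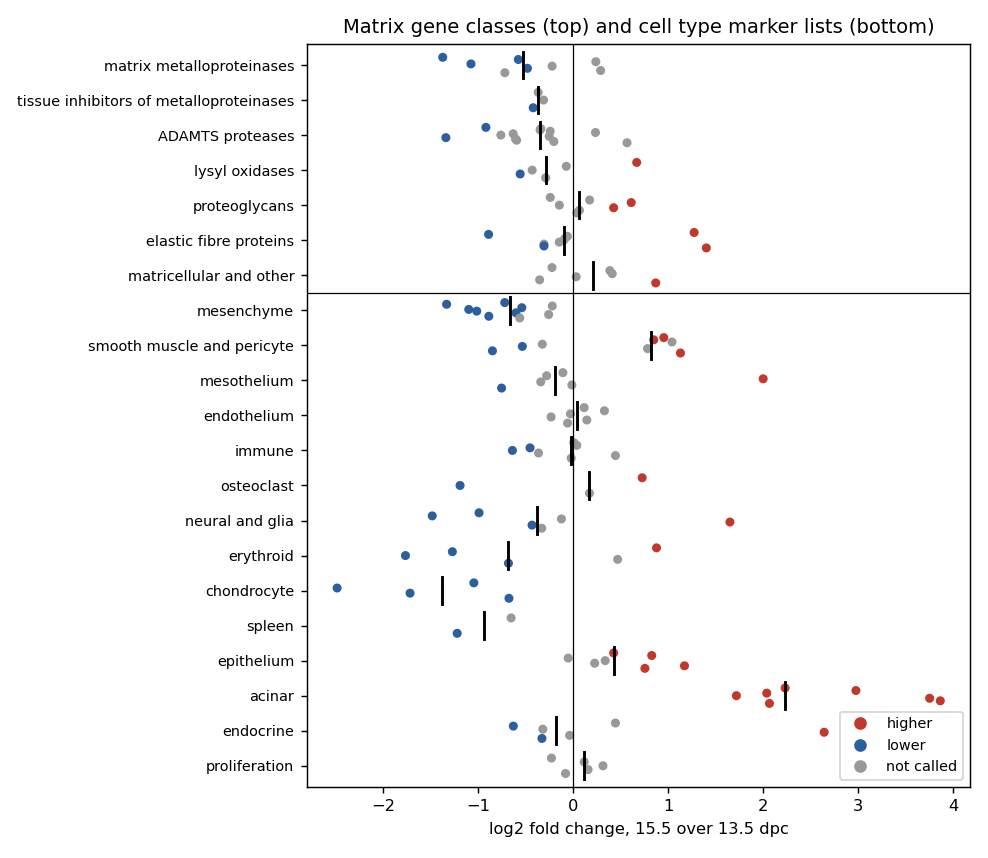
Log2 fold change (15.5 over 13.5 dpc) of each gene, by class of the matrix genes (top) and by cell type marker list (bottom), with a bar at the median of each row and colours for genes called higher (red), lower (blue) or not called (grey). The metalloproteinase median is -0.53. Those of the mesenchyme, erythroid, and neural and glia markers are -0.66, -0.68 and -0.38, and that of the acinar markers is 2.23.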

How the data were processed

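Poly(A) RNA of the 6 pancreas samples, 3 for each of 13.5 and 15.5 dpc, was sequenced from one end. The authors demultiplexed the reads with bcl2fastq 1.8.4, aligned them to mm10 with GSNAP, assigned those with a unique alignment to Ensembl genes with featureCounts 1.4.6 and deposited raw counts with the exon length of each gene. The libraries were strand-specific, but the strand setting of the counting is not given in the sources used here, so shares of exon bases opposite other genes are given.

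The stages were compared with edgeR 4.0.16 under R 4.3.3 (filterByExpr, TMM, quasi-likelihood test, no covariates, Benjamini-Hochberg adjustment over 15578 genes) and DESeq2 1.42.0 as an alternative. The SE is the size of the log2 fold change over the root of the F statistic. Python 3.11.15 was used for sequences and figures. The per-sample columns were 6 and all were used. Genes were named by class: those called, and the 10 highest per kilobase, in full. The genes, classes and lists were chosen with earlier results of these data known. As alternatives, library size alone, relative log expression or upper quartile factors, DESeq2, other filters, a replicate block, removal of genes holding over 1% of a sample's counts, removal of a lowess trend with exon length (span 0.5) and omission of each sample were tried. The steps were tested on simulated data.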

Additional observations from a re-analysis of the deposited data

How the results depend on the processing

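The same replicate numbers did not pair the samples (correlations of deviations 0.22, -0.22 and 0.038), and with a replicate block 6 of the 51 genes were higher and 8 lower (of all genes, 9.15% and 8.02%). Over 763 comparisons of single genes with an alternative, 647 kept their direction and side of the threshold, 53 lost a call, 44 gained one and 19 changed sign, none of these among the 16 called genes. The number of genes called higher was 2 when scaled to library size only, where 7.27% of all genes were higher and 18.9% lower, and 12 with the length trend removed, and 2 to 10 with one sample left out, where the number called lower was 3 to 24. The called genes were 37.5% higher, against 12.5% when scaled to library size only and 48.0% with the length trend removed, and over all genes these shares were 52.1%, 27.7% and 55.1%. The 11 further family genes called higher became 7 (library size only), 7 (replicate block), 17 (length trend removed) and 5 to 12 (one sample left out), and the 16 called lower became 4 to 28.

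Scaled to library size only, the median was -0.44 for all 51, -0.73 for metalloproteinases, -0.60 for inhibitors, -0.14 for proteoglycans, -0.30 for elastic fibre genes and 0.00059 for matricellular genes. With the length trend removed, it was -0.26 for inhibitors, 0.20 for proteoglycans and 0.051 for elastic fibre genes. With one sample left out, it ranged from -0.35 to -0.065 for all 51, from -0.62 to -0.41 for metalloproteinases, from -0.88 to -0.28 for ADAMTS genes, from -0.59 to 0.0018 for lysyl oxidases and from -0.019 to 0.22 for proteoglycans.

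Signs changed for genes near 0 or with a wide spread. Scaled to library size only, *Bgn* was -0.033, *Ogn* -0.14, *Vcan* -0.15 and *Sparc* -0.18, and *Vcan* was -0.033 with the replicate block. With the length trend removed, *Adamts5* was 0.016, *Fbn1* 0.11, *Fbln1* 0.024, *Fbln2* 0.062 and *Fbln5* 0.051. With one sample left out, *Adamts12* ranged from -1.74 to 0.13, *Loxl1* from -0.11 to 0.0018, *Loxl4* from -1.24 to 0.084, *Ogn* from -0.026 to 0.19, *Vcan* from -0.32 to 0.28, *Fbn1* from -0.62 to 0.16 and *Fbln2* from -0.18 to 0.064. What lies behind these sign changes was not tested.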
